A study of Rattus norvegicus with 15 samples.

Results

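Danshen injection given before doxorubicin was compared with doxorubicin alone across 11026 genes of H9c2 cells. These were the genes at 1 or more FPKM (fragments per length of transcript and per number of mapped fragments) in at least 3 of the 6 libraries of the 2 groups, out of 19328 entries in the deposited table. Of the 11026 genes, 10362 had a symbol that stood on 1 entry only. The minimum was met only through DOX by 48 genes and only through DSI+DOX by 7. H9c2 is a myoblast line from embryonic rat heart that divides in culture, and its RNA was sequenced in 5 groups of 3 libraries. The DOX group received 2 µM doxorubicin, and the DSI+DOX group received 50 µL of danshen injection, diluted 1 in 20 in the culture, 4 h before the same dose of doxorubicin. The con group received phosphate-buffered saline, while 5 µM astaxanthin (AXT+DOX) or 10 µM diosmetin (DMT+DOX) preceded 2 µM doxorubicin in the remaining groups. Cells were harvested 24 h after doxorubicin. The labels carry WT under the genotype tag for con and the treatment name under that tag for the other groups, and they name no allele or transgene. No group received danshen injection without doxorubicin, so its effect on the cells and its effect on their response to doxorubicin cannot be told apart. The labels do not say whether the 3 libraries of a group came from separate cultures, so that the spread behind the p-values is that between these libraries and may be technical.

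Doxorubicin is an anthracycline that holds topoisomerase II on cut DNA, and the resulting breaks activate p53, a transcription factor that induces genes of cell cycle arrest, DNA damage tolerance and cell death. The same damage can activate NF-kB, which induces chemokines and its own inhibitors, and the integrated stress response, in which kinases of the translation factor eIF2 raise ATF4 and through it the genes of amino acid supply. Anthracyclines are also known for damaging heart muscle. Danshen is the root of Salvia miltiorrhiza, and the injection is a water-based preparation of it whose known constituents are phenolic acids such as danshensu and the salvianolic acids.

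The cells carried few markers of a mature cardiomyocyte, although the labels call them cardiomyocyte cells. Of 12 cardiomyocyte markers, 3 reached a mean of 1 FPKM in DOX and in DSI+DOX, namely Tnnt2, Nkx2-5 and Gata4, while Myh6, Myh7, Tnni3, Nppa, Nppb, Actn2, Ryr2, Pln and Tbx5 lay below it. Skeletal myoblast markers reached it for 8 of 10 in DOX and 7 of 10 in DSI+DOX, and Myod1, the skeletal muscle determination factor, was at 19.3, 18.8 and 20.7 FPKM in DOX and 22.8, 23.5 and 18.5 FPKM in DSI+DOX. All 4 smooth muscle markers were present, and they summed to between 2818 and 2986 FPKM in DOX and between 3904 and 4788 FPKM in DSI+DOX. Of the endothelial and macrophage markers none reached 1 FPKM in either group, of the epithelial ones only Krt8 did, and 5 of 8 fibroblast markers did in both. In bulk RNA, fewer cells of a type and less RNA per cell cannot be told apart.

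DSI+DOX replicate 3 stood apart from every other library. Its values correlated with those of replicates 1 and 2 at r = 0.951 and 0.962 across genes, while the pair of replicates 1 and 2 reached 0.995 and all pairs within the other groups 0.991 or more. The FPKM of this library summed to 548227, against 433383 to 468608 in the other 14. It held 96 genes over 2-fold above and 877 over 2-fold below the mean of the other 2 libraries of its group on the log2(FPKM + 1) scale. Ribosomal protein genes took 11.2% of its total and 6.54% to 7.93% elsewhere. Calls and fold changes are therefore given with this library and without it ("without replicate 3"). Read depth is not given by these values.

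DSI+DOX differed from DOX more often towards lower than towards higher values. With all libraries, 883 genes were called, which is 8.01% of those tested; 162 (1.47%) were higher in DSI+DOX and 721 (6.54%) lower. Called means an adjusted p (Benjamini and Hochberg) under 0.05 in a limma fit to log2(FPKM + 1). All log2 fold changes are DSI+DOX minus DOX on that scale, where changes of low genes come out too small. Without replicate 3 the fit called 1336 genes (12.1%), 307 (2.78%) higher and 1029 (9.33%) lower. The genes called with the same sign both ways numbered 789 (7.16%), of which 142 (1.29%) were higher and 647 (5.87%) lower. The libraries of the 2 groups did not overlap for 2804 genes (25.4%), 635 of them higher in DSI+DOX (5.76%) and 2169 lower (19.7%). Without replicate 3 the 2 remaining libraries did not overlap with DOX for 4571 genes (41.5%), 1307 higher (11.9%) and 3264 lower (29.6%). Only 19 called genes (0.172%) moved by 2-fold or more, 5 upward (0.0453%) and 14 downward (0.127%), and without replicate 3 there were 16 (0.145%), 2 upward (0.0181%) and 14 downward.

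The balance of rises and falls depended on the scale of the libraries. The median log2 fold change over all genes was -0.12 with all libraries and -0.047 without replicate 3. When every library was scaled to the same median, it became 0.036 and 475 genes were called (4.31%), 271 higher (2.46%) and 204 lower (1.85%), so that 57.1% of calls were higher in place of 18.3%. Without replicate 3 that scale gave 1055 calls (9.57%), 603 higher (5.47%) and 452 lower (4.1%). Quantile normalization, run with all libraries, gave 345 higher and 392 lower, or 46.8% higher. A set of 325 genes (2.95%), 128 higher (1.16%) and 197 lower (1.79%), was called with the same sign with and without replicate 3 and again both ways after median scaling. They are described below as called on both scales. With only the 2 groups in the fit and all 6 libraries, 1 gene was called, Slc4a11, and 1239 genes had an unadjusted p under 0.05. Without replicate 3 that fit called 687 genes, 151 higher and 536 lower.

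**Figure D1:**
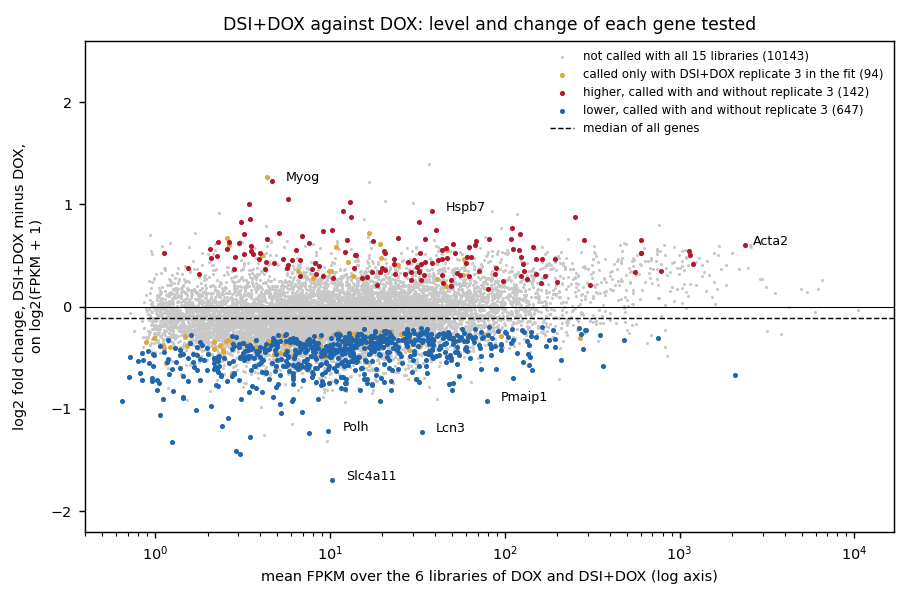
Log2 fold change of each of the 11026 genes (vertical axis, DSI+DOX minus DOX on log2(FPKM + 1)) against its mean FPKM over the 6 libraries (horizontal, log axis). Red points are the 142 genes called higher and blue points the 647 called lower with and without DSI+DOX replicate 3, orange points are the 94 called only with that library in the fit, and the dashed line is the median of all genes at -0.12.

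The largest falls included genes of DNA damage tolerance, inflammation and cell death. Slc4a11, a membrane transporter best known from the corneal endothelium, stood at 15.9, 15.7 and 17.4 FPKM in DOX and 4.53, 4.48 and 4.11 FPKM in DSI+DOX, against a mean of 0.254 ± 0.10 (SD, n = 3) in con. Its log2 fold change was -1.69 ± 0.080 (SE, limma adjusted p = 1.61e-07), and -1.66 (adjusted p = 7.67e-08) without replicate 3. Every DSI+DOX library, replicate 3 included, lay far below every DOX library. Polh, the polymerase that copies past DNA lesions, stood at 13.6, 14.5 and 14.1 FPKM in DOX and 6.1, 6.62 and 4.05 FPKM in DSI+DOX. Its change was -1.21 ± 0.13 (SE, limma adjusted p = 0.000154), and -1.03 (adjusted p = 8.03e-06) without replicate 3. The groups did not overlap, and replicate 3 was the lowest library. Lcn3, a lipocalin, was at 50.4, 45.1 and 44.8 FPKM in DOX and 14.3, 16.9 and 29.8 FPKM in DSI+DOX. Here replicate 3 was the highest DSI+DOX library, and the fall was larger without it, -1.52 (limma adjusted p = 6.56e-05) against -1.23 (adjusted p = 0.00543).

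Other large falls touched receptors, adaptors and junction proteins. The values were -1.27 (-1.15) for the adhesion G protein-coupled receptor Adgrf3 and -0.95 (-0.90) for Garem2, an adaptor of growth factor signalling to ERK, where the number in brackets is the log2 fold change without replicate 3, here and below. Genes given in this form only were called with and without replicate 3. Nphs1, which encodes nephrin, changed by -0.92 (-0.84), and Tjp3, a tight junction protein, by -0.90 (-0.99). The RCC1 domain protein Rccd1 had a larger change, -1.23 (-1.34). Depdc7, Trim7 (a ubiquitin ligase) and Zscan25 (a zinc finger protein) changed by -0.92 (-0.99), -0.90 (-0.56) and -0.82 (-0.54). Trim7 was not called after median scaling. In con these genes ranged from 0.013 ± 0.0225 FPKM for Adgrf3 to 6.9 ± 0.482 FPKM for Zscan25, each below its DOX level.

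The largest rises included genes of muscle. Myog, the transcription factor that starts terminal muscle differentiation, was at 2.22, 2.6 and 2.31 FPKM in DOX and 8.1, 6.04 and 6.68 FPKM in DSI+DOX. Myog rose by 1.23 ± 0.11 (SE, limma adjusted p = 7.3e-05), and 1.25 (adjusted p = 2.43e-05) without replicate 3. All DSI+DOX libraries lay above all DOX libraries, yet far below the con mean of 93.9 ± 4.03 FPKM (SD, n = 3). Hspb7, a small heat shock protein of heart and skeletal muscle, was at 26.8, 24.7 and 26.2 FPKM in DOX and 47.5, 48.6 and 55.4 FPKM in DSI+DOX. Hspb7 rose by 0.94 ± 0.071 (SE, limma adjusted p = 2.37e-05), and 0.87 (adjusted p = 2.03e-06) without replicate 3, to levels between those of DOX and the con mean of 80.3 ± 3.39 FPKM. Among the other rises, Mgst3, a microsomal glutathione transferase, changed by 0.88 (0.63) and Sult1a1, a sulfotransferase of phenolic compounds, by 0.72 (0.62). S100a4, a calcium-binding protein of motile cells, was at 188, 166 and 169.8 FPKM in DOX and 249, 281 and 468 FPKM in DSI+DOX. Replicate 3 held the highest S100a4 value, and the change shrank from 0.87 to 0.60 without it.

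**Figure D2:**
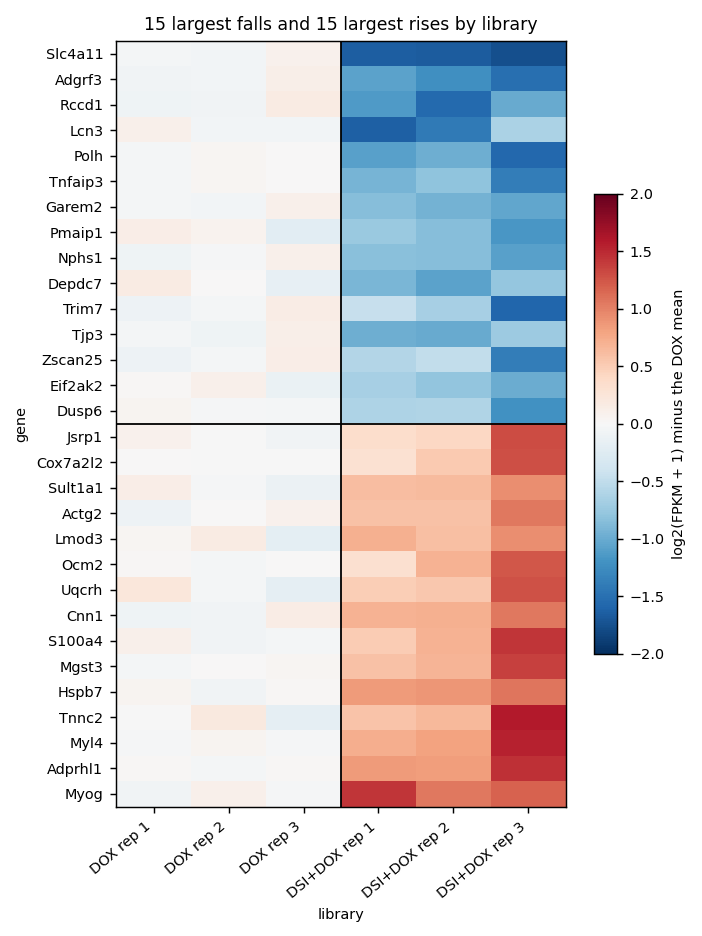
Difference of each library from the DOX mean on log2(FPKM + 1) (colour) for the 15 largest falls and the 15 largest rises (vertical axis, genes) in the 3 DOX and 3 DSI+DOX libraries (horizontal axis). The 30 genes had a unique symbol, were called with and without DSI+DOX replicate 3 and did not overlap between groups; replicate 3 lies beyond the other 2 DSI+DOX libraries for most of them, and short of them for Lcn3, Rccd1, Depdc7 and Tjp3.

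Of 25 genes that p53 induces for cell cycle arrest, repair and feedback, 12 were called lower in DSI+DOX both ways and 0 higher, and 13 were not called both ways. Of the 12, 9 were called on both scales. Over all genes, 5.87% were called lower and 1.29% higher both ways, and 1.79% lower and 1.16% higher on both scales. List counts here and below stand against these shares. The median log2 fold change of the list was -0.31 with all libraries and -0.26 without replicate 3, against -0.12 and -0.047 over all genes. Mdm2, the ubiquitin ligase that p53 induces against itself, was at 263, 253 and 228 FPKM in DOX and 194, 181 and 144 FPKM in DSI+DOX. Mdm2 fell, with a log2 fold change of -0.53 ± 0.094 (SE, limma adjusted p = 0.00444), and -0.40 (adjusted p = 0.000905) without replicate 3, with no overlap between groups. Gtse1, a microtubule-binding protein that restrains p53, was at 62.6, 63 and 66 FPKM in DOX and 37.6, 39.9 and 35.5 FPKM in DSI+DOX. Gtse1 fell, with a log2 fold change of -0.75 ± 0.057 (SE, limma adjusted p = 2.37e-05), and -0.71 (adjusted p = 2.59e-06) without replicate 3, and its replicate 3 was close to the other 2 libraries. Plk2, a stress-induced polo-like kinase, changed by -0.61 (-0.53). Rev1, a partner of Polh in lesion bypass, changed by -0.58 (-0.38), and it stands on the separate list of DNA repair genes. Of the 33 tested there, 2 were called lower both ways, a share near the 5.87% of all genes, and 0 higher.

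The arrest gene Cdkn1a was not called. Cdkn1a, which encodes the cyclin-dependent kinase inhibitor p21, was at 298, 281 and 290.2 FPKM in DOX and 265, 279 and 277 FPKM in DSI+DOX, so that the groups did not overlap, by a narrow margin. Its log2 fold change was -0.081 ± 0.060 (SE, limma adjusted p = 0.367), and -0.090 (adjusted p = 0.339) without replicate 3, and its sign turned to 0.070 (adjusted p = 0.636) after median scaling. The con mean was 111 ± 2.25 FPKM. Among p53 targets of cell death, 2 of 9 were called lower both ways and on both scales, and none was higher. Pmaip1, which encodes the BH3-only protein NOXA that neutralizes MCL1, was at 114, 108 and 89.4 FPKM in DOX and 61.2, 56.7 and 45.3 FPKM in DSI+DOX. Pmaip1 fell, with a log2 fold change of -0.92 ± 0.11 (SE, limma adjusted p = 0.000336), and -0.80 (adjusted p = 8.67e-05) without replicate 3. Dram1, a lysosomal membrane protein linking p53 to autophagy, changed by -0.53 (-0.47). In the wider list of BCL2 proteins and caspases only Casp12, a caspase of the endoplasmic reticulum in rodents, was called both ways among 24 tested, at -0.55 (-0.40).

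Of 16 NF-kB feedback genes and subunits 6, and of 11 chemokines and cytokines 7, were called lower both ways, against 5.87% over all genes. Several of them carried an NF-kB motif just upstream of their start. The stretches shown were chosen because these 4 genes are induced by NF-kB, were called lower both ways and hold the motif. They are 80 bases long, lie within the 250 bases before the annotated start, read 5′ to 3′ on the gene's strand, and come from RefSeq on the build GRCr8. That build is not the Rnor_6.0 of the submitters' processing notes, and the deposited table holds no coordinates. Capitals mark the NF-kB motif on either strand, and the capitals of Cxcl1 hold a pair of overlapping matches.
Tnfaip3 chr1:15543990-15544069, minus strand: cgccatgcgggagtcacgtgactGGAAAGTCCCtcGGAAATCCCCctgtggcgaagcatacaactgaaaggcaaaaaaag
Nfkbia chr6:78597073-78597152, minus strand: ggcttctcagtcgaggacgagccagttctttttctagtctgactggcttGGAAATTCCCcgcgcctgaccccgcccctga
Nfkbie chr9:22947992-22948071, minus strand: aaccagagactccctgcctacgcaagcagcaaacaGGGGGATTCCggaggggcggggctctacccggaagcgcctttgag
Cxcl1 chr14:17479360-17479439, minus strand: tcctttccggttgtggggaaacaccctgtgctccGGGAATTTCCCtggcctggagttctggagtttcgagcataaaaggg
A match describes the letters and not a bound site. The NF-kB motif was in 1185 of 33469 rat promoters of the same length (3.54%), searched on both strands. It was in 11 of the 20 tested NF-kB and cytokine genes that matched a promoter. The first share counts promoter entries of all genes, expressed or not, while a list gene counted if any of its entries held the motif. The shares are therefore not like for like, here and for the motifs below. Of the 9 among them called lower both ways it was in 7, and of the 11 not called both ways in 4.

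None of the NF-kB subunits and feedback inhibitors was called higher, and 2 of the 6 falls were called on both scales. The median of the list was -0.28 with all libraries and -0.25 without replicate 3. Tnfaip3, which encodes the ubiquitin-editing inhibitor A20, was at 7.13, 7.59 and 7.36 FPKM in DOX and 3.39, 3.79 and 2.21 FPKM in DSI+DOX. Tnfaip3 fell, with a log2 fold change of -1.04 ± 0.14 (SE, limma adjusted p = 0.000823), and -0.87 (adjusted p = 0.000312) without replicate 3, and its lowest value was replicate 3. Relb, a subunit of the alternative NF-kB pathway, was at 17.7, 16.3 and 17.3 FPKM in DOX and 10.4, 11.6 and 13.6 FPKM in DSI+DOX. Relb fell, with a log2 fold change of -0.50 ± 0.098 (SE, limma adjusted p = 0.00791), and -0.59 (adjusted p = 0.00054) without replicate 3. For Nfkbie, the inhibitor IkB epsilon, the groups did not overlap at 10.02, 9.48 and 10.7 FPKM in DOX and 5.89, 6.48 and 6.57 FPKM in DSI+DOX, and the change was -0.60 (-0.62). The related inhibitor Nfkbia, whose values were looked up because its promoter is printed, changed by -0.34 (-0.27), and Nfkbiz, a nuclear IkB protein, by -0.39 (-0.37).

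Chemokines and cytokines had the lowest median of all the lists, -0.43 with all libraries and -0.50 without replicate 3. Of 11 tested, 7 were called lower both ways, 0 were called higher both ways and 1 was called on both scales. Lif, an interleukin-6 family cytokine, was at 11.9, 14.1 and 15 FPKM in DOX and 10.01, 8.73 and 5.41 FPKM in DSI+DOX. Lif fell, with a log2 fold change of -0.73 ± 0.16 (SE, limma adjusted p = 0.0147), and -0.50 (adjusted p = 0.005) without replicate 3. Cxcl1, a neutrophil attractant, was at 15.7, 16.1 and 14 FPKM in DOX and 9.43, 11.2 and 9.86 FPKM in DSI+DOX, with no overlap and with replicate 3 between the other 2 libraries. Cxcl1 fell, with a log2 fold change of -0.55 ± 0.10 (SE, limma adjusted p = 0.00623), and -0.53 (adjusted p = 0.00553) without replicate 3, and it was called without replicate 3 but not with it after median scaling. Ccl2, a monocyte attractant, was at 8.39, 7.49 and 6.77 FPKM in DOX and 4.81, 3.88 and 5.69 FPKM in DSI+DOX, and it changed by -0.57 (-0.68). Tslp, a cytokine of epithelial alarm, changed by -0.55 (-0.62) from levels near 1 FPKM. It met the minimum of 1 FPKM only through DOX, and it is included in the 7 chemokines and cytokines and among the 7 of 9 that held the NF-kB motif. Icam1, the leukocyte adhesion molecule, changed by -0.41 (-0.39), and no other of the 15 receptor and adhesion genes tested was called both ways.

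Of 14 interferon-response genes tested, 3 were called lower and 0 higher both ways, against 5.87% and 1.29% over all genes, with 2 on both scales. Irf7, the transcription factor that amplifies interferon production, was at 22.9, 21.8 and 23.5 FPKM in DOX and 12.9, 13.5 and 15.3 FPKM in DSI+DOX. Irf7 fell, with a log2 fold change of -0.67 ± 0.10 (SE, limma adjusted p = 0.00139), and -0.74 (adjusted p = 0.000244) without replicate 3. Tap1, which carries peptides to MHC class I, changed by -0.60 (-0.62) and Irf1 by -0.41 (-0.44). Eif2ak2, the double-stranded RNA sensor kinase PKR that phosphorylates eIF2, is induced by interferon and is counted here with the stress response. It was at 64.7, 68.2 and 58 FPKM in DOX and 39.6, 36.4 and 31.4 FPKM in DSI+DOX, without overlap. Eif2ak2 fell, with a log2 fold change of -0.81 ± 0.10 (SE, limma adjusted p = 0.000465), and -0.72 (adjusted p = 0.000244) without replicate 3. Its DSI+DOX mean was 35.8 FPKM, or 38.0 FPKM without replicate 3, against a con mean of 29.3 ± 1.54 FPKM.

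Genes of the integrated stress response and of amino acid supply were called lower and never higher both ways in each of 4 lists. The upstream stretches of 4 of them are shown because each was called lower both ways and holds the C/EBP-ATF element TGATGCAA or its reverse complement TTGCATCA, which ATF4 is known to bind and which the capitals mark. Source, build, length and strand are as for the NF-kB genes.
Chac1 chr3:126795928-126796007, plus strand: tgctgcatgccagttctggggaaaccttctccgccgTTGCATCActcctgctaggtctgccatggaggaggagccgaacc
Iars1 chr17:15193653-15193732, minus strand: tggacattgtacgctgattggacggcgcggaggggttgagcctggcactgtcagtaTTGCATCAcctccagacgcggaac
Slc1a4 chr14:98761733-98761812, minus strand: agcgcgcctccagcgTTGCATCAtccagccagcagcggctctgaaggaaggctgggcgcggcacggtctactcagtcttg
Pycr1 chr10:106420900-106420979, minus strand: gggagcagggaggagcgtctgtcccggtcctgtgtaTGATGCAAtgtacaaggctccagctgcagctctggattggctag
The element was in 232 of 33469 promoters (0.693%), searched on both strands. It was in 12 of 57 tested genes of the 4 lists described next that matched a promoter. Among them it was in 8 of the 23 called lower both ways and in 4 of the 34 not called both ways.

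Of 23 regulators of the integrated stress response, 9 were called lower and 0 higher both ways, against 5.87% and 1.29% over all genes. On both scales 4 were called, against 1.79% lower over all genes. Atf4 itself and Ddit3, which encodes CHOP, were not called both ways, and neither were Atf5, Cebpb, Eif2ak3 and Eif2ak4. The list median was -0.29 with all libraries and -0.25 without replicate 3. Chac1, an enzyme that degrades glutathione and a target of ATF4 and CHOP, was at 42.7, 41.3 and 42.4 FPKM in DOX and 28.7, 30.4 and 28 FPKM in DSI+DOX. Chac1 fell, with a log2 fold change of -0.52 ± 0.079 (SE, limma adjusted p = 0.00144), and -0.50 (adjusted p = 0.00101) without replicate 3, with replicate 3 next to the other libraries. Stc2, a secreted glycoprotein induced by ATF4, changed by -0.49 (-0.36). Gdf15, a stress cytokine, was at 2.55, 1.64 and 2.28 FPKM in DOX and 0.959, 1.12 and 1.42 FPKM in DSI+DOX, and it changed by -0.54 (-0.62).

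In the list of amino acid synthesis enzymes, which also holds the carrier Slc1a4, 6 of 16 genes were called lower both ways and 0 higher. Over all genes, 5.87% were called lower both ways and 1.79% on both scales. The list median was -0.27 with all libraries and -0.22 without replicate 3. The 2 called on both scales were Asns and Slc1a4, and Slc1a4 is counted again among the transporters. Asns, asparagine synthetase, was at 60.2, 58.8 and 62.1 FPKM in DOX and 43.4, 45.8 and 43 FPKM in DSI+DOX. Asns fell, with a log2 fold change of -0.44 ± 0.059 (SE, limma adjusted p = 0.000633), and -0.43 (adjusted p = 0.000306) without replicate 3. The proline enzyme Pycr1 changed by -0.42 (-0.34) and the serine and glycine enzyme Shmt2 by -0.37 (-0.46). Amino acid transporters had a median of -0.42 with all libraries and -0.31 without replicate 3, and 5 of 12 were called lower both ways, 3 of them on both scales. Slc1a5, the glutamine carrier, was at 40.4, 39.4 and 42.6 FPKM in DOX and 25, 25.6 and 21.9 FPKM in DSI+DOX. Slc1a5 fell, with a log2 fold change of -0.73 ± 0.070 (SE, limma adjusted p = 8.11e-05), and -0.67 (adjusted p = 1.31e-05) without replicate 3. Slc7a5, the leucine carrier, Slc1a4, which carries serine and alanine, and Slc6a9, which carries glycine, changed by -0.42 (-0.34), -0.50 (-0.30) and -0.44 (-0.38).

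Cytosolic aminoacyl-tRNA synthetases were called lower both ways in 9 of 20 cases, and in 0 cases higher, against 5.87% and 1.29% over all genes. The list median was -0.25 with all libraries and -0.26 without replicate 3, and 1 gene was called on both scales. Nars1, which charges the asparagine tRNA, was at 127, 122 and 119 FPKM in DOX and 99.7, 101 and 87 FPKM in DSI+DOX, and it changed by -0.35 (-0.29). Iars1, Eprs and Cars, for isoleucine, glutamate with proline, and cysteine, changed by -0.49 (-0.30), -0.46 (-0.34) and -0.41 (-0.47). Of 23 genes of the unfolded protein response, 1 was called higher and 1 lower both ways, and the median was 0.024 with all libraries and 0.055 without replicate 3. Hspa5, the main chaperone of the endoplasmic reticulum, changed by -0.21 (-0.18) and was not called after median scaling, while the disulfide isomerase Pdia6 changed by 0.30 (0.23).

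Of 10 AP-1 factors, 5 were called lower both ways and 0 higher, against 5.87% and 1.29% over all genes. On both scales 2 were called, and the median was -0.33 with all libraries and -0.31 without replicate 3. AP-1 factors are immediate early genes, which growth signals through the kinase ERK induce. Fosl1, a Fos family member that ERK stabilizes, was at 38.1, 38 and 40.9 FPKM in DOX and 23.1, 25.1 and 22.2 FPKM in DSI+DOX. Fosl1 fell, with a log2 fold change of -0.71 ± 0.076 (SE, limma adjusted p = 0.000165), and -0.67 (adjusted p = 7.3e-05) without replicate 3. Maff and Jun changed by -0.64 (-0.64) and -0.37 (-0.34). Dusp6, the phosphatase that ERK induces to inactivate itself, was at 30.00, 28.2 and 28.1 FPKM in DOX and 18.4, 18.6 and 11.8 FPKM in DSI+DOX, with replicate 3 lowest. Dusp6 fell, with a log2 fold change of -0.81 ± 0.13 (SE, limma adjusted p = 0.00226), and -0.61 (adjusted p = 7.17e-05) without replicate 3. Of 14 MAPK feedback genes, 3 were called lower both ways, against 5.87% over all genes. Spry2, an inhibitor of receptor tyrosine kinase signalling, changed by -0.44 (-0.40). The median of these 14 genes was -0.32 with all libraries and -0.081 without replicate 3, against -0.12 and -0.047 over all genes, and 1 was called on both scales. Among 16 EGR, NR4A and KLF genes, 5 were called lower both ways, 4 of them on both scales, and 2 were called higher without replicate 3 only; Klf5, Klf10 and Egr1 changed by -0.66 (-0.55), -0.55 (-0.43) and -0.47 (-0.35).

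Of 13 growth factor genes, 3 were called lower and 1 higher both ways, with 1 lower and 1 higher on both scales. Over all genes the shares called both ways were 5.87% lower and 1.29% higher. Etv4, Phlda1 and Epha2 were chosen after their values had been seen. Etv4, an ETS factor downstream of ERK, was at 15, 16.7 and 15.6 FPKM in DOX and 8.96, 9.2 and 8.9 FPKM in DSI+DOX. Etv4 fell, with a log2 fold change of -0.74 ± 0.072 (SE, limma adjusted p = 8.11e-05), and -0.73 (adjusted p = 3.32e-05) without replicate 3. Phlda1, which limits receptor signalling, changed by -0.77 (-0.72) and Epha2, an ephrin receptor, by -0.76 (-0.55). Vegfa, the angiogenic growth factor, was at 46.2, 43.5 and 42.8 FPKM in DOX and 31.9, 30.4 and 22 FPKM in DSI+DOX, and its log2 fold change was -0.65 ± 0.12 (SE, limma adjusted p = 0.00444), and -0.49 (adjusted p = 0.000888) without replicate 3. Hbegf, an EGF receptor ligand, changed by -0.40 (-0.38) and was not called after median scaling with all libraries. In the same list Angptl4, a lipoprotein lipase inhibitor that PPARs induce, rose by 0.82 (0.65). Matrix glycoproteins were called lower both ways in 3 of 13 cases, 2 of them on both scales, against 5.87% and 1.79% over all genes. Tnc, which encodes tenascin C, Fbln2 and Postn changed by -0.67 (-0.54), -0.62 (-0.68) and -0.48 (-0.44). Postn was not called after median scaling with all libraries. No collagen or collagen enzyme of 25 tested was called both ways.

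Clock genes were called lower in 5 of 16 cases both ways and 3 on both scales, against 5.87% and 1.79% over all genes. None was called higher. Nr1d1, the REV-ERB alpha repressor, was at 17.4, 21.2 and 20.6 FPKM in DOX and 12, 11.4 and 11.5 FPKM in DSI+DOX. Nr1d1 fell, with a log2 fold change of -0.71 ± 0.077 (SE, limma adjusted p = 0.000165), and -0.70 (adjusted p = 7.3e-05) without replicate 3. Nr1d2, its paralog, Arntl, which encodes the activator BMAL1, and Bhlhe40, a repressor of the clock, changed by -0.53 (-0.33), -0.50 (-0.31) and -0.48 (-0.26). The values come from 1 time of harvest, so that phase and level of the clock cannot be told apart.

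Of 7 sarcomere, myosin and actin genes 4, and of 5 troponins 3, were called higher in DSI+DOX both ways, against 1.29% over all genes. Acta1, skeletal muscle alpha-actin, is shown because its upstream stretch holds a CArG box, the element that serum response factor is known to bind. The stretch was taken from RefSeq GRCr8 in the same way, and capitals mark the box.
Acta1 chr19:68784244-68784323, minus strand: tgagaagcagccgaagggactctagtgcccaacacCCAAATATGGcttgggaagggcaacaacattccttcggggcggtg
The CArG box was in 501 of 33469 promoters (1.5%) on either strand, and in 4 of 24 tested contractile and cytoskeletal genes that matched. Among these 24, Acta1 alone of the 5 called higher both ways held it. It was also in 3 of the 17 not called both ways and in 0 of the 2 called lower both ways. The E-box CAGCTG, a letter sequence that myogenic factors bind, was in 4007 promoters (12.0%). It was in 8 of the 17 tested sarcomere, troponin and Z-disc genes that matched a promoter. Among these 17 it was in 6 of the 8 called higher both ways and in 2 of the 9 not called both ways.

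All 4 myosin and actin genes called were called on both scales, and 0 were called lower. The median of the 7 was 0.53 with all libraries and 0.35 without replicate 3. Acta1 was at 1.9, 2.25 and 1.67 FPKM in DOX and 4.08, 4.6 and 6.13 FPKM in DSI+DOX. Acta1 rose by 1.0 ± 0.12 (SE, limma adjusted p = 0.000388), and 0.86 (adjusted p = 0.000122) without replicate 3, from a level well under the con mean of 19.4 ± 1.85 FPKM. Myl4, the atrial and embryonic essential light chain, was at 7.88, 8.4 and 7.96 FPKM in DOX and 14, 14.9 and 25.2 FPKM in DSI+DOX, with replicate 3 highest. Myl4 rose by 1.02 ± 0.17 (SE, limma adjusted p = 0.00299), and 0.76 (adjusted p = 0.000199) without replicate 3. Acta2, smooth muscle alpha-actin and among the most abundant transcripts of these cells, was at 1911, 1819 and 1935 FPKM in DOX and 2691, 2837 and 3084 FPKM in DSI+DOX. Acta2 rose by 0.60 ± 0.082 (SE, limma adjusted p = 0.000765), and 0.55 (adjusted p = 0.000182) without replicate 3.

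For all 5 troponin genes tested the groups did not overlap, with DSI+DOX higher, as for 5.76% of all genes. Of the 5, 3 were called higher both ways, 2 of them on both scales. The list median was 0.66 with all libraries and 0.46 without replicate 3. Tnnt2, cardiac troponin T, was at 88.7, 81.8 and 73 FPKM in DOX and 102, 108 and 195 FPKM in DSI+DOX. Replicate 3 stood far above the other DSI+DOX libraries. The change was 0.66 with it and 0.37 without it, and after median scaling the gene was not called with all libraries. Tnnc2 and Tnnt3, of fast skeletal muscle, changed by 0.94 (0.61) and 0.57 (0.52). For Tnnt3 the libraries stood at 1.2, 1.73 and 1.46 FPKM in DOX and 2.47, 2.57 and 2.9 FPKM in DSI+DOX, with replicate 3 highest by a small margin.

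In the Z-disc and costamere list, 4 of 11 genes were called higher both ways and on both scales, 0 lower, and the median was 0.35 with all libraries and 0.39 without replicate 3. Xirp1, an actin-binding protein of muscle junctions, was at 1.87, 2.07 and 2.73 FPKM in DOX and 4.67, 4.36 and 3.76 FPKM in DSI+DOX. Xirp1 rose by 0.71 ± 0.11 (SE, limma adjusted p = 0.00133), and 0.78 (adjusted p = 0.000312) without replicate 3. Lmod3, an actin filament nucleator of the thin filament, changed by 0.75 (0.66) and Ankrd1, a stretch-responsive cofactor, by 0.35 (0.39). Cnn1, smooth muscle calponin, was at 21.7, 21.8 and 25.5 FPKM in DOX and 37.9, 38.4 and 49 FPKM in DSI+DOX, and it rose by 0.83 ± 0.10 (SE, limma adjusted p = 0.000395), and 0.71 (adjusted p = 9.37e-05) without replicate 3. Cnn1 stands on another list, of cytoskeletal targets of YAP and serum response factor. Of the 25 tested there, 5 were called higher and 2 lower both ways, against 1.29% and 5.87% over all genes. The median of that list was 0.050 with all libraries and 0.12 without replicate 3. Adprhl1, a heart-enriched relative of ADP-ribosylhydrolases, changed by 1.05 (0.84) and Jsrp1, a protein of the junctional sarcoplasmic reticulum, by 0.69 (0.39); Jsrp1 was not called after median scaling with all libraries. Of 13 genes of calcium handling and excitation, Casq2, cardiac calsequestrin, rose by 0.31 (0.33) and Chrna1, an acetylcholine receptor subunit, fell, at -0.33 (-0.39). Of 9 myogenic regulators Myog alone was called both ways. Hand2, a cardiac transcription factor, changed by 0.46 (0.33).

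**Figure D3:**
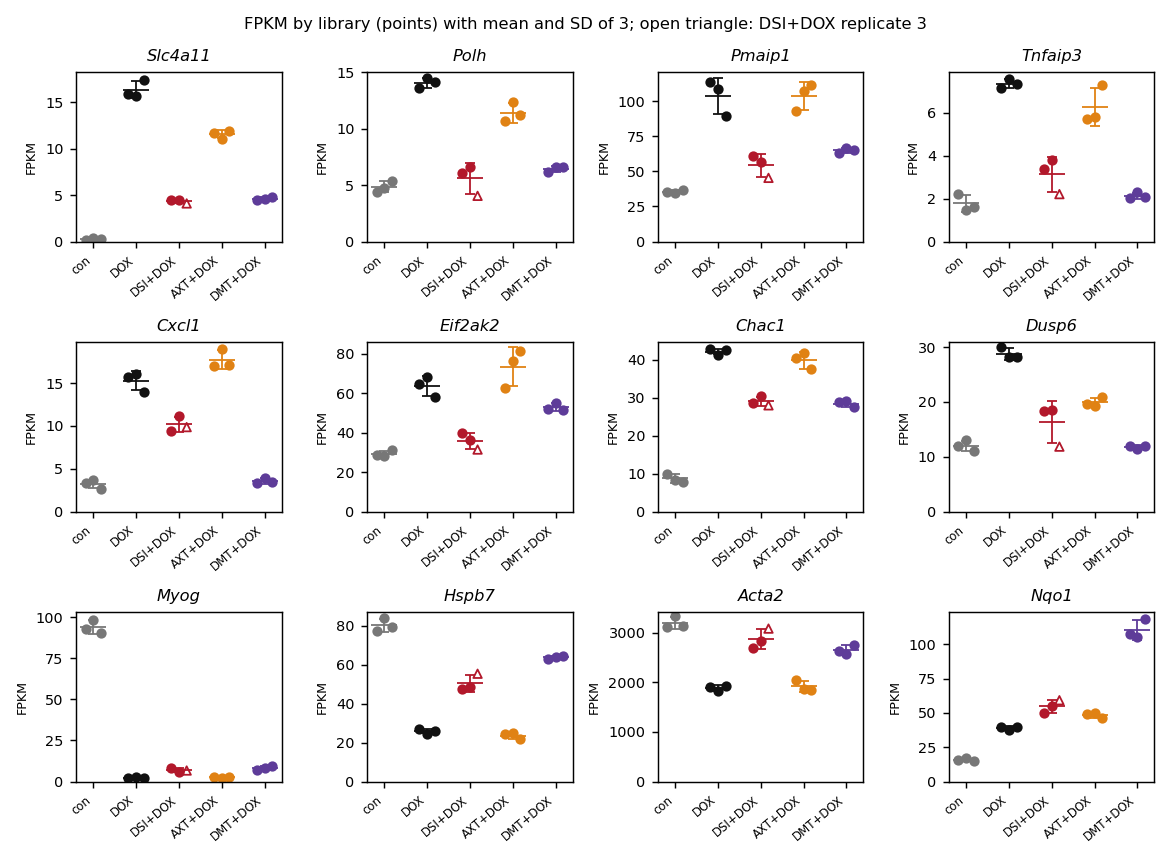
FPKM (vertical axes, from 0) of 12 genes in the 15 libraries by group (horizontal axes); points are libraries, bars the mean and SD of 3, and the open triangle is DSI+DOX replicate 3. Slc4a11, Polh, Pmaip1, Tnfaip3, Cxcl1, Eif2ak2, Chac1 and Dusp6 lie lower and Myog, Hspb7, Acta2 and Nqo1 higher in DSI+DOX than in DOX, and Cxcl1 and Nqo1 separate DSI+DOX from DMT+DOX.

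Redox genes moved in both directions. Of 26 NRF2 targets tested, 3 were called higher and 3 lower both ways, and the median was -0.049 with all libraries and -0.014 without replicate 3. Nqo1, a quinone reductase that can act on anthracyclines, was at 39.4, 37.5 and 39.9 FPKM in DOX and 50.2, 54.8 and 59.2 FPKM in DSI+DOX. Nqo1 rose by 0.48 ± 0.073 (SE, limma adjusted p = 0.00162), and 0.42 (adjusted p = 0.000939) without replicate 3, with no overlap. The glutathione transferases Mgst1 and Gsta4 changed by 0.35 (0.30) and 0.62 (0.35). Hmox1, heme oxygenase, was at 122, 113 and 119 FPKM in DOX and 100.3, 102 and 101 FPKM in DSI+DOX, and its log2 fold change was -0.22 ± 0.062 (SE, limma adjusted p = 0.0454), and -0.22 (adjusted p = 0.0325) without replicate 3; it was not called after median scaling. Sqstm1, the autophagy receptor p62, changed by -0.33 (-0.32) and Nfe2l2, which encodes NRF2, by -0.30 (-0.28), and neither was called on both scales. Glrx, glutaredoxin, rose by 0.58 (0.52). Gpx4, the lipid peroxidase that guards against ferroptosis, was at 151, 134 and 142 FPKM in DOX and 121, 141 and 237 FPKM in DSI+DOX, so that its 0.17 (limma adjusted p = 0.534) rested on replicate 3; it was -0.12 (adjusted p = 0.465) without it.

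Ahr, the aryl hydrocarbon receptor that senses xenobiotics, was at 11.5, 12.1 and 11.5 FPKM in DOX and 7.19, 7.99 and 4.77 FPKM in DSI+DOX. Ahr fell, with a log2 fold change of -0.75 ± 0.14 (SE, limma adjusted p = 0.00703), and -0.56 (adjusted p = 0.00299) without replicate 3. Abcb1a, the efflux pump P-glycoprotein, was at 12, 12.9 and 13.2 FPKM in DOX and 10.3, 9.49 and 5.22 FPKM in DSI+DOX, with replicate 3 far below the others. Abcb1a changed by -0.60 ± 0.17 (SE, limma adjusted p = 0.0445), and -0.33 (adjusted p = 0.0133) without replicate 3. It was not called after median scaling with all libraries (-0.45, limma adjusted p = 0.063), nor when any 1 DOX library was left out. Top2a, a target of doxorubicin, was at 10.8, 10.3 and 9.57 FPKM in DOX and 13.2, 11.2 and 6.92 FPKM in DSI+DOX, and no direction was called (-0.014 with all libraries, adjusted p = 0.96, and 0.23 without replicate 3, limma adjusted p = 0.156). Among metabolic genes, Pfkm, the muscle phosphofructokinase, was at 25, 26.5 and 29 FPKM in DOX and 38, 39.6 and 39 FPKM in DSI+DOX. Pfkm rose by 0.52 ± 0.060 (SE, limma adjusted p = 0.000264), and 0.52 (adjusted p = 9.37e-05) without replicate 3. Ech1 and Acaa2, enzymes of fatty acid oxidation, changed by 0.64 (0.47) and 0.61 (0.49), and Ucp2, a mitochondrial carrier, by 0.35 (0.27). Their list of fatty acid synthesis and oxidation had a median of 0.010 with all libraries and 0.040 without replicate 3. Of its 27 genes tested, 3 were called higher and 1 lower both ways, against 1.29% and 5.87% over all genes. The fall was Hadhb, at -0.23 (-0.18), which was not called after median scaling.

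Of 32 mitosis genes, 7 were called higher in DSI+DOX and 1 lower both ways, against 1.29% higher and 5.87% lower over all genes, and 6 of the 7 on both scales, with a median of 0.026 with all libraries and 0.14 without replicate 3. Ccnb1, cyclin B1, was at 9.0, 9.89 and 10.6 FPKM in DOX and 15.8, 15.3 and 12.9 FPKM in DSI+DOX. Ccnb1 rose by 0.53 ± 0.10 (SE, limma adjusted p = 0.00629), and 0.61 (adjusted p = 0.00066) without replicate 3, and its con mean was 39.3 ± 0.883 FPKM. Ube2c, the ubiquitin-conjugating enzyme of the anaphase-promoting complex, changed by 0.52 (0.43) and Pttg1, securin, by 0.55 (0.34). Cdc25c, the phosphatase that starts mitosis, was the called fall, at -0.43 (-0.36). Of 35 DNA replication genes, 3 were called lower both ways, a share near the 5.87% of all genes, and 0 higher, and none was called on both scales. The fit without replicate 3 called 7 of the 35 lower, against 9.33% over all genes, and 0 higher. Cdt1, the origin licensing factor, changed by -0.63 (-0.76). Ccnd1 and Ccnd3, cyclins of G1, changed by -0.49 (-0.32) and 0.38 (0.35). Nucleolar factors of ribosome assembly were called lower both ways in 5 of 26 cases, against 5.87% over all genes, and none on both scales. Nolc1 changed by -0.37 (-0.38).

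Several lists moved with replicate 3. Ribosomal protein genes had a median of 0.41 with all libraries and 0.15 without replicate 3, and in replicate 3 their median lay 0.84 above that of the other 2 DSI+DOX libraries in log2 units. Of 41 tested, 3 were called higher both ways and none on both scales, and reads shared with near-identical copies make their values uncertain. The 43 nuclear genes of the respiratory chain had a median of 0.27 with all libraries and 0.080 without replicate 3 and lay 0.70 higher in replicate 3. Uqcrh, a complex III subunit, was at 92.2, 76.9 and 69.7 FPKM in DOX and 112, 115 and 192 FPKM in DSI+DOX, and it changed by 0.77 (0.52). Large nuclear regulators of chromatin went the other way, with a replicate 3 median of -0.90, and none of 35 was called both ways. Chd4, a chromatin remodeller and the member of that list with the smallest p, was at 51.9, 57.5 and 60.5 FPKM in DOX and 53.9, 50.5 and 35.1 FPKM in DSI+DOX. Troponins lay 0.98 higher in replicate 3, while the lists of NF-kB feedback (-0.0051), stress response regulators (-0.036) and tRNA synthetases (0.020) lay within 0.05 of the other 2 libraries. Further lists with lower calls lay lower in replicate 3, among them amino acid transporters (-0.55) and MAPK feedback genes (-0.54). Clock genes (-0.32), EGR, NR4A and KLF genes (-0.32) and matrix glycoproteins (-0.31) did so too. Over all genes this deviation was -0.13.

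**Figure D4:**
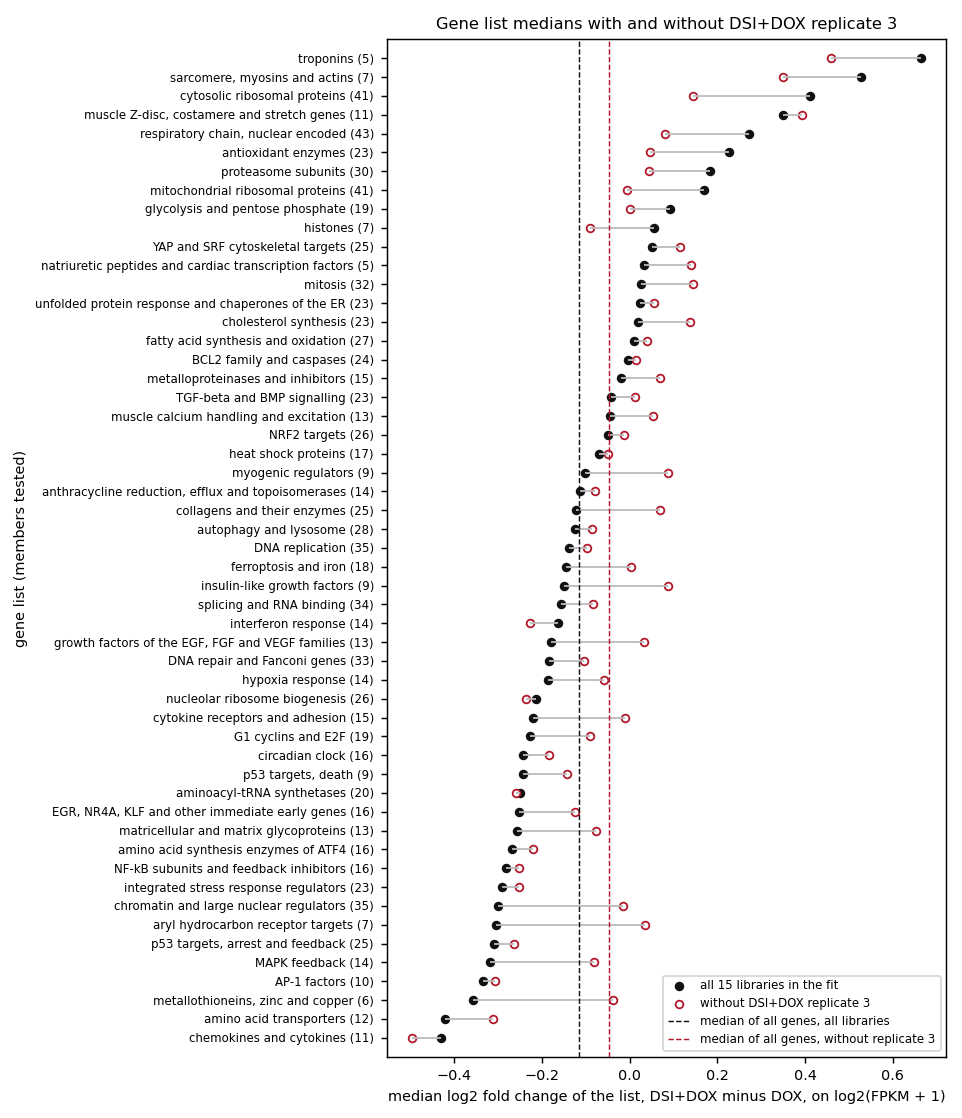
Median log2 fold change (horizontal axis, DSI+DOX minus DOX on log2(FPKM + 1)) of each gene list (vertical axis, with its number of tested genes), with all 15 libraries (filled) and without DSI+DOX replicate 3 (open). Dashed lines are the medians of all genes; ribosomal proteins move from 0.41 to 0.15 and chromatin regulators from -0.30 to -0.015 between the fits, while the NF-kB list stays at -0.28 and -0.25.

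The differences from DOX were then set beside the other additions, which share neither agent nor dose with danshen injection. DSI+DOX differed from AXT+DOX at 1161 genes (10.5%), 278 higher (2.52%) and 883 lower (8.01%), and without replicate 3 at 1308 (11.9%), 354 higher (3.21%) and 954 lower (8.65%). Against DMT+DOX it differed at 182 genes (1.65%), 39 higher (0.354%) and 143 lower (1.3%), and without replicate 3 at 295 (2.68%), 84 higher (0.762%) and 211 lower (1.91%). Called both ways were 963 genes (8.73%) against AXT+DOX, 233 higher (2.11%) and 730 lower (6.62%), and 170 (1.54%) against DMT+DOX, 35 higher (0.317%) and 135 lower (1.22%). All 3 comparisons share the DSI+DOX libraries.

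Against AXT+DOX, DSI+DOX was called higher both ways for 5 of 7 sarcomere, myosin and actin genes and 4 of 5 troponins. The same held for 7 of 11 Z-disc and costamere genes, and 0 genes of these lists were called lower. Of the 25 p53 targets of arrest and feedback 11, of the 23 stress response regulators 7 and of the 20 tRNA synthetases 9 were called lower, and 0 higher. Slc4a11 was at 11.6 ± 0.441 FPKM (SD, n = 3) in AXT+DOX, and DSI+DOX minus AXT+DOX was -1.23 ± 0.080 (SE, adjusted p = 4.13e-06), and -1.19 (adjusted p = 1.65e-06) without replicate 3 by limma. Eif2ak2, at 73.4 ± 9.76 FPKM in AXT+DOX, differed by -1.01 ± 0.10 (SE, adjusted p = 0.00034), and -0.92 (adjusted p = 9.94e-05) without replicate 3. Myog and Hspb7 were higher in DSI+DOX by 1.15 (1.17) and 1.07 (1.0), and Acta1 and Tnnt2 by 1.29 (1.15) and 1.12 (0.82), each called both ways. Postn, periostin, was also higher, by 0.74 (0.78), although it was lower in DSI+DOX than in DOX. Among the stress response regulators, Gdf15 differed by 0.10 (95% interval -0.21 to 0.41, limma adjusted p = 0.611) and 0.020 (-0.31 to 0.35) without replicate 3 and Stc2 by -0.33 (95% interval -0.56 to -0.10, limma adjusted p = 0.0614) and -0.20 (-0.38 to -0.029) without replicate 3, and neither was called with all libraries. For Glrx the difference was 0.053 (95% interval -0.094 to 0.20, limma adjusted p = 0.578) and -0.0023 (-0.13 to 0.13) without replicate 3. For Ccl2 it was 0.0066 (95% interval -0.29 to 0.30, limma adjusted p = 0.977) and -0.10 (-0.39 to 0.18) without replicate 3.

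Against DMT+DOX, 5 of 16 NF-kB subunits and feedback inhibitors and 3 of 11 chemokines and cytokines were called higher in DSI+DOX both ways and 0 lower. Of 26 NRF2 targets 3 were called lower and 0 higher. Cxcl1 averaged 10.2 ± 0.925 FPKM in DSI+DOX and 3.56 ± 0.32 FPKM in DMT+DOX (SD, n = 3 each), a difference of 1.29 ± 0.10 (SE, adjusted p = 3.72e-05), and 1.31 (adjusted p = 1.53e-05) without replicate 3 by limma. Ccl2 averaged 4.8 ± 0.906 and 1.05 ± 0.236 FPKM, a difference of 1.49 ± 0.14 (SE, adjusted p = 9.71e-05), and 1.38 (adjusted p = 6.99e-05) without replicate 3. Relb, Nfkbie, Nfkbiz and Icam1 were higher in DSI+DOX by 0.90 (0.80), 0.48 (0.45), 0.49 (0.51) and 0.38 (0.40), and Maff and Slc7a5 by 0.57 (0.57) and 0.38 (0.45). All 6 were called with and without replicate 3. Tnfaip3 differed by 0.38 ± 0.14 (SE, adjusted p = 0.159), and 0.55 (adjusted p = 0.0223) without replicate 3 by limma and was called only without that library. Lif gave 0.060 (95% interval -0.28 to 0.40, limma adjusted p = 0.811) and 0.29 (0.078 to 0.50) without replicate 3 and was not called with all libraries. Nqo1 averaged 54.8 ± 4.5 and 110.2 ± 7.21 FPKM, and the difference was -1.0 ± 0.073 (SE, adjusted p = 2.13e-05), and -1.05 (adjusted p = 2.43e-06) without replicate 3. Sult1a1, Ca9 (a carbonic anhydrase) and Hspb7 were lower in DSI+DOX, at -0.53 (-0.63), -0.47 (-0.49) and -0.33 (-0.40).

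Eif2ak2 was lower in DSI+DOX than in each of the other doxorubicin groups. It averaged 52.8 ± 1.94 FPKM in DMT+DOX, and DSI+DOX minus DMT+DOX was -0.55 ± 0.10 (SE, adjusted p = 0.0231), and -0.46 (adjusted p = 0.0186) without replicate 3 by limma. For Slc4a11 no difference from DMT+DOX was called, at -0.069 (95% interval -0.24 to 0.10, limma adjusted p = 0.567) and -0.033 (-0.21 to 0.14) without replicate 3. For Pmaip1 it was -0.26 (95% interval -0.50 to -0.024, limma adjusted p = 0.183) and -0.14 (-0.34 to 0.056) without replicate 3. Acta2 gave 0.11 (95% interval -0.064 to 0.29, limma adjusted p = 0.371) and 0.062 (-0.088 to 0.21) without replicate 3, and Myog -0.25 (95% interval -0.50 to -0.00087, limma adjusted p = 0.209) and -0.23 (-0.49 to 0.030) without replicate 3. The intervals are not adjusted over genes; of those of Slc4a11, Pmaip1, Acta2 and Myog, the ones of Pmaip1 and Myog with all libraries lie below 0 and the others include it.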

How the data were processed

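Total RNA of 15 H9c2 libraries, 3 in each of 5 groups, was sequenced after TRIzol extraction and NEBNext Ultra library preparation, per the labels. The deposited table gives 1 FPKM value per gene and library, per the file headers. The submitters' processing notes name Trimmomatic, HISAT2, featureCounts and the build Rnor_6.0. How counts became FPKM, and whether libraries were normalized to each other, is not given in the sources used here. Values of low genes held no steps of whole reads (the commonest ratio of 2 DOX libraries held 0.548% of 1094 low genes), so depth is unknown, and no count model or counting interval was used.

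Of 19344 entries, 16 exact duplicates were removed; 1315 had no symbol, 446 shared a symbol and 2 symbols had turned into dates. limma 3.58.1 (R 4.3.3) fitted group means to log2(FPKM + 1) over the 15 libraries, with moderated variances that follow the mean level and 10 residual degrees of freedom (9 without DSI+DOX replicate 3). Tests were two-sided, adjusted over the 11026 genes tested by Benjamini and Hochberg and called under 0.05. Intervals are 95% intervals of this fit. Median scaling gave each library the same median log2 value over the genes tested.

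Members and gene lists were chosen with earlier results of these data known, and some genes stand on more than 1 list. Named genes were the 15 largest rises and 15 largest falls with a symbol that were called with the same sign with and without DSI+DOX replicate 3, averaged 5 FPKM or more in the higher group, and did not overlap between the groups. Up to 4 members per list called both ways were added (the smallest p where there was none), and a few markers. This rule gave 155 tested genes, not all of them printed. Alternatives were other pseudocounts, filters, scalings, groups in the fit, weights, a replicate block and each library left out. Leaving out DSI+DOX replicate 3 together with median scaling or with the block was added after seeing the data. Motifs were searched in the 250 bases before each RefSeq start. Figures were drawn with matplotlib 3.10.9.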

Additional observations from a re-analysis of the deposited data

How the results depend on the processing

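Read depth is unknown, and the library scale moves the balance of calls. Replicate 3 of DSI+DOX weighs on several lists, the ribosomal protein, respiratory chain and chromatin lists among them. The naming rule took genes called with and without that library, apart from a few markers and the smallest-p member of lists without any. Of the 144 genes called both ways, 84 were also called after median scaling both ways. The cause of the changes below was not tested unless the setting itself shows it. For DSI+DOX against DOX, leaving out 1 library at a time gave 377 to 2570 calls (504 without DOX replicate 1, 377 without DOX replicate 2, 588 without DOX replicate 3, 2570 without DSI+DOX replicate 1, 1336 without DSI+DOX replicate 3) in place of 883. Only the 2 groups in the fit gave 1 call, median scaling 475, array weights 3713, and a minimum of 2-fold 19. For DSI+DOX against AXT+DOX, leaving out 1 library gave 225 to 4029 calls in place of 1161 (268 without AXT+DOX replicate 2, 225 without AXT+DOX replicate 3, 4029 without DSI+DOX replicate 1), and median scaling gave 773. For DSI+DOX against DMT+DOX, leaving out 1 library gave 22 to 2205 calls in place of 182 (22, 26 and 47 without DMT+DOX replicates 1, 2 and 3, 2205 without DSI+DOX replicate 1, 295 without DSI+DOX replicate 3), and median scaling without replicate 3 gave 277. The replicate number as a replicate block gave 570, 721 and 40 calls in the 3 comparisons. Same-numbered DOX and DSI+DOX libraries deviated from their group means with correlations of -0.47, 0.14 and -0.37. With DOX replicate 1, DSI+DOX replicates 1 and 2 correlated at -0.47 and -0.41 and replicate 3 at 0.48. The DSI+DOX deviations are taken from a mean that includes the deviating replicate 3, so they cannot show whether the numbers pair the samples. With the block and without replicate 3 the first comparison gave 929 calls. The markers Actb, Cdkn1a, Gpx4 and Top2a, none of them called, changed sign. Actb was 0.13 and became -0.12 under quantile normalization. Cdkn1a was -0.081 and became 0.0703 after median scaling. Gpx4 was 0.17 and ranged from -0.12 (without DSI+DOX replicate 3) to 0.36 (without DSI+DOX replicate 1) with 1 library left out; it was -0.12 with only the 2 groups in the fit or with the block, each without replicate 3, and -0.039 after median scaling without replicate 3. Top2a was -0.014 and ranged from -0.19 (without DSI+DOX replicate 1) to 0.23 (without DSI+DOX replicate 3) with 1 library left out, at 0.024 without DOX replicate 1. It was 0.23 with only the 2 groups and 0.24 with the block, each without replicate 3, 0.14 after median scaling, 0.31 after median scaling without replicate 3, and 0.15 both under quantile normalization and with array weights.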
